A study of Mus musculus with 2 samples.

Results

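Cells of a mouse lung fibroblast culture in which at least 1 transcript of the transcription factor gene Tcf21 was counted are described here. A member is a cell with 5000 or more unique molecular identifiers (UMIs, each standing for 1 captured RNA molecule), at most 20% of its UMIs from mitochondrial genes, and at least 1 Tcf21 UMI. In all, 662 cells met this rule, out of 12714 deposited barcodes and 10785 cells that passed the depth and mitochondrial limits. The control library held 533 of them among 4077 such cells, and the stimulated library held 129 among 6708.

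Both libraries came from wild-type C57BL/6 mouse lung. The dissociated lung was plated whole, and fibroblasts were grown out of it to passage 3, in medium with 10% serum or, to bring out a lipofibroblast phenotype, with 1% ITS+3 supplement added; the labels do not say which medium these libraries had. Stimulated cells then received, for 14 days, 1 or several of rosiglitazone (10 µM), SB4315442 (1 µM, spelled as in the labels) and recombinant human BMP4 (4 µM, the unit as in the labels). The labels do not say which of these the stimulated library received, and control cells of the same lung received vehicle in the same medium for the same time. There was 1 library per group, so no difference below has a replicate check, no p-value was computed, and every interval covers counting error only. The cells are cultured descendants of whatever in the lung attached to plastic, which limits them as a model of fibroblasts in the tissue.

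Tcf21 encodes a basic helix-loop-helix transcription factor of the mesenchyme of the developing lung, kidney, heart and other organs. It pairs with the broadly expressed E-proteins and binds short DNA elements called E-boxes, of the form CANNTG and often CAGCTG. In the mouse lung it is needed for branching and alveolar growth and is used as a marker of a fibroblast lineage that includes the lipid-storing lipofibroblasts.

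The start-site regions of Tcf21 itself, of 2 genes that were higher in Tcf21 positive control cells (Figf, the vascular endothelial growth factor D gene, and Lxn, a carboxypeptidase inhibitor gene) and of 1 that was lower (Des, the muscle intermediate filament gene) are shown because the results below turn on these genes and the E-box is the element that TCF21 binds. Each runs from 250 bases before to 50 after the annotated start, 5′ to 3′ on the gene's strand, from RefSeq on GRCm38.p6. Capitals mark every CANNTG.
Tcf21 (chr10:22820094-22820393, minus strand): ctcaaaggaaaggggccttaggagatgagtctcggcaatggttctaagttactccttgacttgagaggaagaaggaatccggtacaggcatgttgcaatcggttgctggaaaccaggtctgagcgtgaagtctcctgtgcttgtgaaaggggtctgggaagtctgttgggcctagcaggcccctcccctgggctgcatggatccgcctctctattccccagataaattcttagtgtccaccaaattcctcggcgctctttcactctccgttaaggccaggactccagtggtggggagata
Figf (chrX:164373272-164373571, plus strand): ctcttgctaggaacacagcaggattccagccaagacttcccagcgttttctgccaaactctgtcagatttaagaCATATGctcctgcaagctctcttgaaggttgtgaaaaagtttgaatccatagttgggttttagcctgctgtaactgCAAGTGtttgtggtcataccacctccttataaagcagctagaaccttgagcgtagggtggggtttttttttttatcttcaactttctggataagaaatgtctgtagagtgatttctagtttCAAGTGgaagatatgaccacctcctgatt
Lxn (chr3:67463858-67464157, minus strand): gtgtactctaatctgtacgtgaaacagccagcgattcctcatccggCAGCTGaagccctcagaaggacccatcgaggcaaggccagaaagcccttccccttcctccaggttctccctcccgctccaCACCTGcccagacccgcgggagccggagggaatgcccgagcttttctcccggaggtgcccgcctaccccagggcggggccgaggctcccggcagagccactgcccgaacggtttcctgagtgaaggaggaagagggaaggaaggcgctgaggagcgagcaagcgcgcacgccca
Des (chr1:75360042-75360341, plus strand): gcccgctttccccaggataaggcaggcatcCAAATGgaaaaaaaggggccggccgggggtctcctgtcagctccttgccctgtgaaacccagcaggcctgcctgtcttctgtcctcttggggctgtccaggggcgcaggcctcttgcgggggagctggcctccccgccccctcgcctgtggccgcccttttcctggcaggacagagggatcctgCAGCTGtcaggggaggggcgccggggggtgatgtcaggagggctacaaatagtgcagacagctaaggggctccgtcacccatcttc
The Tcf21 window holds no CANNTG, the Figf window holds 3, and the Lxn and Des windows hold 2 each, of which 1 in each is CAGCTG. Both motifs were searched on both strands, and the second motif is one form of the first, CANNTG. The form CAGCTG was present in 16.3% of all 32851 RefSeq windows and in 13.9% of the 6832 windows of genes measured in the control comparison. It was present in 3 of the 11 windows of the 9 named higher genes that matched the table. The windows of 1 of these, Tmem176a, overlap and share the same CAGCTG, so that 2 of the 9 genes hold it. It was also in 2 of the 7 windows of the 5 named lower genes that matched. CANNTG was present in 72.3% of all windows, 61.0% of those of measured genes, 8 of those 11 and 7 of those 7. These are letters in a window and not measured binding.

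Control cells were sequenced somewhat deeper, with a median of 20860 UMIs in cells that passed the limits against 16099 for stimulated cells. In all, 53 barcode sequences occurred in both libraries, none of them among the Tcf21 positive cells of both. The joint clustering, made without Tcf21 among its genes, gave 13 clusters. All but 3 were called fibroblast-like from collagen, Thy1, Sparc and similar markers. The others were a macrophage-like cluster of 129 control cells, a mesothelial-like cluster of 56 control and 23 stimulated cells, and a cluster of 566 stimulated cells led by Des that was left unnamed.

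Tcf21 was seldom counted in any cell. In the control it was seen in 13.1% of cells (exact binomial 95% interval 12.1 to 14.1), and its level over all cells was 8.16 CPM (counts per 1000000 UMIs; 711 Tcf21 UMIs, interval 7.57 to 8.78). In the stimulated library it was seen in 1.92% of cells (1.61 to 2.28), at 1.19 CPM (137 UMIs, 0.995 to 1.40). Of the control members, 419 had 1 Tcf21 UMI, 75 had 2, 29 had 3, and 2, 4, 1 and 3 cells had 4, 5, 6 and 7. Of the stimulated members, 123 had 1, 4 had 2 and 2 had 3. Most members were therefore 1 UMI inside the rule, and a cell just outside it is one with none.

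Whether a cell met the rule followed its depth. The share of control cells with a Tcf21 UMI was 3.96%, 12.7%, 13.3% and 19.2% in 4 depth ranges whose cells had medians of 7337, 16881, 23737 and 33989.5 UMIs. When every cell was thinned to 5000 UMIs, with no cell shallower, 3.90% of control cells (3.33 to 4.54, 159 cells) and 0.611% of stimulated cells (0.439 to 0.828, 41 cells) still held one. The share was thus also higher in the control at equal depth. In the macrophage-like control cells, which should lack the gene, the count was 0 of 129 at a median of 11258 UMIs, which by the limit of 3 counts allows a share of up to 2.33% of cells with a UMI (the exact binomial interval reaches 2.82%), and 1 of 56 mesothelial-like control cells had a Tcf21 UMI.

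Tcf21 positive cells lay in nearly every fibroblast-like cluster, at unequal rates. At 5000 UMIs per cell the control share was 7.98% (5.37 to 11.3) in the cluster led by Lum, Dcn and Col14a1 and 6.19% (3.82 to 9.40) in the one led by Mmp3, Serpinb1a and Ccl8. It was 4.01% (3.19 to 4.97) in the largest cluster, led by Meg3 and Adamts5, 3.13% (1.97 to 4.71) in the cycling cluster led by Top2a and 1.62% (0.596 to 3.49) in the one led by Hsd3b6, Cxcl14 and the granzyme gene Gzmd. Neighbours in this order had overlapping intervals, whereas the intervals of the Lum-led cluster and the Meg3-led cluster did not overlap. The Tcf21 level ran in the same order, at 16.2, 14.3, 7.87, 6.45 and 2.56 CPM.

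**Figure D1:**
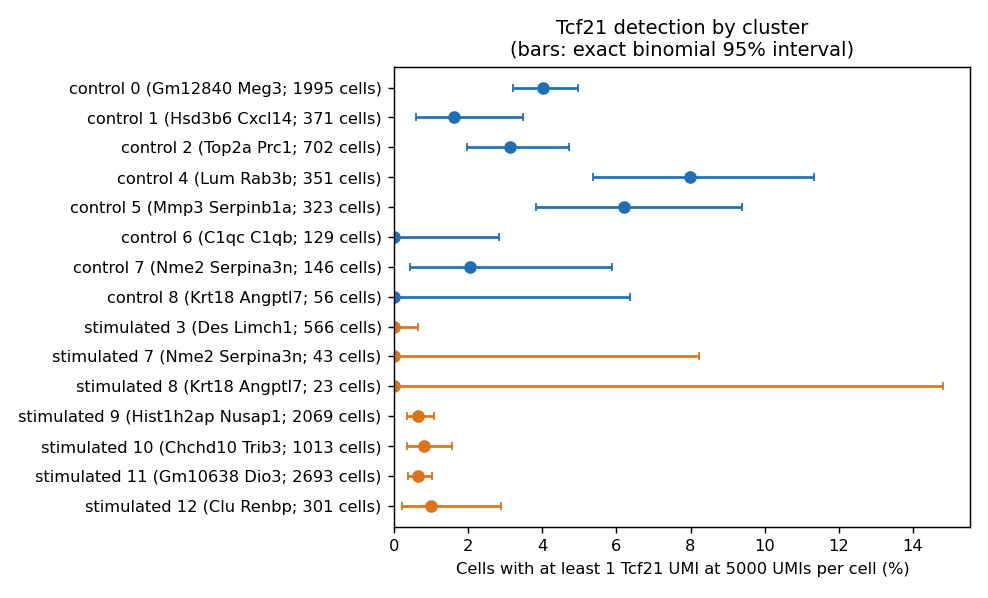
Share of cells with at least 1 Tcf21 UMI after thinning every cell to 5000 UMIs (x axis, percent) in each cluster of the control (blue) and the stimulated (orange) library, with the 2 leading genes and the number of cells; bars are exact binomial 95% intervals. The Lum-led control cluster is highest at 7.98%. The stimulated clusters in which a thinned cell still holds a Tcf21 UMI lie between 0.628% and 0.997%.

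In the stimulated library the share at 5000 UMIs was 0.628% in the cycling cluster, 0.631% in the cluster led by Dio3 and Meg3, 0.790% in the one led by the stress genes Trib3 and Ddit3 and 0.997% in the one led by Clu. These 4 intervals overlapped, the widest running from 0.206 to 2.88%. In the unnamed Des-led cluster it was 0 of 566 cells, which allows up to 0.530% by the same limit (0.650% by the exact interval), and before thinning 1 of its cells had a Tcf21 UMI. After thinning, the share was lower in cycling than in other cells of both libraries, a difference that was not tested. At 5000 UMIs, 2.71% of cycling control cells (1.64 to 4.19) and 4.15% of the other control cells (3.50 to 4.88) held the transcript, with overlapping intervals, and the stimulated values were 0.545% and 0.640%.

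To describe the members beyond Tcf21, each was set beside the 2 Tcf21 negative cells of its library nearest to it in UMI number. The control sets held 533 and 1066 cells, with medians of 22154 and 22149 UMIs, both with 1.33% mitochondrial UMIs, and with 16.9% and 17.3% of cells in cycle. The stimulated sets held 129 and 258 cells, with medians of 17058 and 17056.5 UMIs and with 34.1% and 29.8% of cells in cycle. Members of the control were found in the Lum-led cluster in 14.6% of cases against 7.598% of matched cells, in the Mmp3-led cluster in 15.6% against 7.97%, and in the Hsd3b6-led cluster in 3.19% against 9.94%. The control matched set held 25 macrophage-like and 10 mesothelial-like cells, and the members held 0 and 1. Each gene's level is its UMIs summed over a set of cells as CPM of all UMIs of that set, and a fold is the ratio of the members' level to that of the matched cells.

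Few genes differed by 1.5-fold between Tcf21 positive and matched control cells. Of 6815 genes with a mean level of 10 CPM or more over both sets, 56 were at least 1.5-fold higher in the members (0.822%) and 27 at least 1.5-fold lower (0.396%), and the median log2 fold over all of them was 0.01. Of the 27 lower genes, 6 were macrophage markers. Pf4, Wfdc17, Ccl6 and Cd52, also among the 27 but outside that marker list, are leading genes of the macrophage-like cluster. With only fibroblast-like clusters kept, none of these genes, nor Apoe or Lgals3, was lower by 1.5-fold. The counts were then 58 and 15, and all 15 lower genes were among the first 27. With matched cells taken from the member's own cluster the counts were 38 and 10, of which 31 and 8 were among the first 56 and 27.

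**Figure D2:**
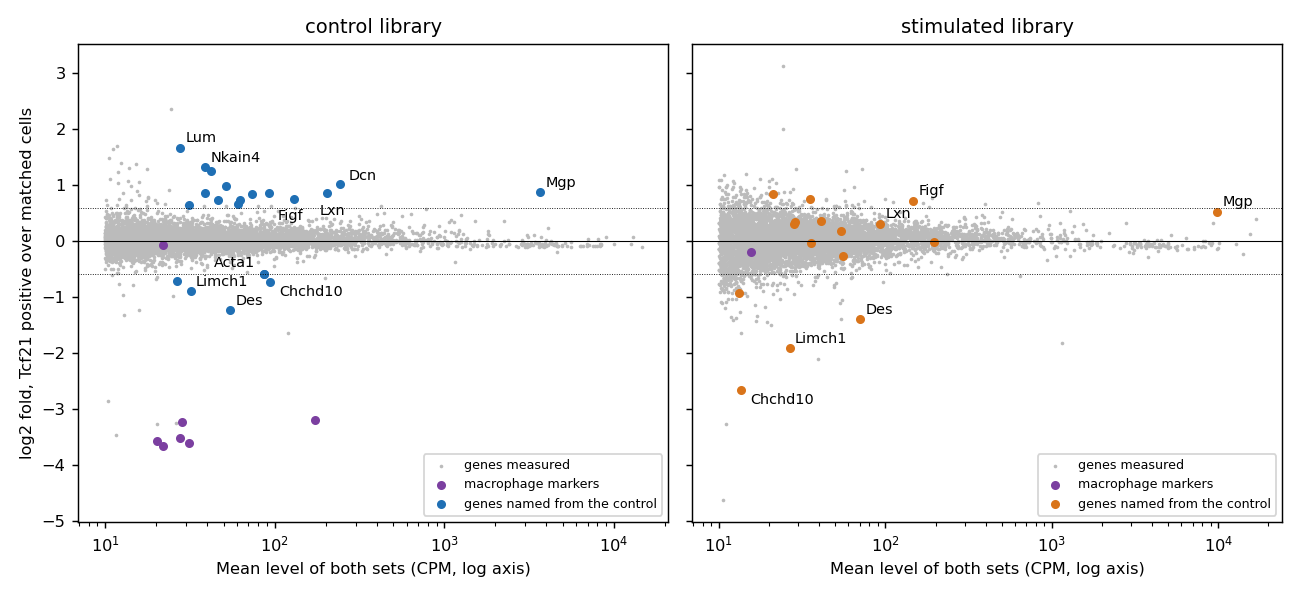
Log2 fold of Tcf21 positive over depth-matched negative cells (y axis) against the mean level of both sets (x axis, CPM, log scale) for every gene measured, in the control (left) and the stimulated library (right); coloured points are the genes named from the control comparison, purple points macrophage markers, and dotted lines 1.5-fold. Lum, Nkain4, Dcn and Mgp stand above the cloud in the control, Des below it, and the cloud is wider in the stimulated library, which has 129 members.

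Genes of collagen-binding proteoglycans were among the higher ones. Lum, which encodes lumican, was at 42.0 CPM in the members and 13.2 CPM in matched control cells, which is 3.18-fold higher (interval 2.76 to 3.66). Dcn, the decorin gene, reached 325 CPM where matched cells had 161 CPM (2.03-fold, 1.94 to 2.12). For Prelp the levels were 119 and 65.9 CPM (1.80-fold, 1.68 to 1.94). All 3 encode small leucine-rich proteoglycans, which coat collagen fibrils and tune their assembly. The other 2 measured members of that list were close to even, Bgn (biglycan) at 1930 against 1713 CPM and Podn at 13.4 against 13.2 CPM. Over the 5 measured of 10 listed, 3 were higher, none was lower, and the median was 0.85 (log2).

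At 5000 UMIs per cell, Lum was seen in 12.6% of members and 4.69% of matched cells, and Dcn in 49.2% and 37.0%. The share of positive cells thus moved with the level. With matching inside clusters the log2 fold of Lum was 0.91 in place of 1.67, and that of Dcn was 0.59 in place of 1.02. Both were higher in the members in each of the 4 control clusters with enough cells, by log2 0.44 to 1.91 for Lum and 0.54 to 0.69 for Dcn. Within the Lum-led cluster itself, Dcn stood at 1076 CPM in members and 716 CPM in the matched cells.

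Mgp encodes matrix Gla protein, an inhibitor of calcification that also binds bone morphogenetic proteins. It was at 4752 CPM in the members and 2602 CPM in matched cells, a fold of 1.83 (1.81 to 1.85), and was seen in 98.9% and 94.6% of the thinned cells. With matching inside clusters its log2 fold was 0.51, under the 1.5-fold line, and it was higher in each of the 4 clusters (0.39 to 0.68). Lxn, which encodes latexin, was at 260 against 144 CPM, a fold of 1.81 (1.72 to 1.90). Figf was at 163 against 96.5 CPM, a fold of 1.69 (1.59 to 1.79); it encodes a secreted growth factor for lymphatic and blood vessels and is also used as a lipofibroblast marker. Lxn and Figf remained past 1.5-fold inside clusters, at log2 0.72 and 0.63.

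Nkain4, a gene for a membrane protein that interacts with the sodium pump, was at 55.4 against 22.2 CPM, a fold of 2.50 (2.23 to 2.80), and at log2 0.80 inside clusters. Tmem176a, a membrane protein gene, was at 94.4 against 52.8 CPM (fold 1.79, 1.65 to 1.94). Serping1, the gene of the C1 inhibitor of complement, was at 78.1 against 47.0 CPM (fold 1.66, 1.53 to 1.81). Mgst1, a microsomal glutathione transferase gene, was at 74.0 against 46.8 CPM (fold 1.58, 1.45 to 1.73), and Cpxm1, of the carboxypeptidase family, at 37.9 against 24.3 CPM (fold 1.56, 1.38 to 1.76). The last 4 were under the 1.5-fold line inside clusters, as were Prelp and Isg15. In all, the naming rule gave 15 higher genes from 22 that qualified. The rule itself asked for the same direction among fibroblast-like cells. With matching inside clusters all 15 kept their direction, 8 of them past 1.5-fold, and 12 were higher in each of the 4 clusters.

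The remaining 4 named higher genes rested on few cells. Saa3, an acute-phase serum amyloid gene, was at 59.3 against 24.8 CPM, but 47.6% of the members' UMIs came from 5 cells, and against all Tcf21 negative control cells its log2 fold was -0.090. Ptn, the pleiotrophin gene, was at 68.8 against 34.8 CPM with 51.8% of UMIs in 5 cells, and it was seen in 9.19% of thinned members and 9.66% of matched cells. Crct1, an epidermal differentiation gene, was at 58.0 against 35.0 CPM with 81.9% of UMIs in 5 cells. Isg15, the ubiquitin-like protein of the interferon response, was at 49.7 against 27.5 CPM with 28.9% in 5 cells, and its log2 fold was 0.43 in cells outside the cycle. For comparison, 5 cells held 13.2% of the Dcn UMIs and 8.76% of the Prelp UMIs.

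**Figure D3:**
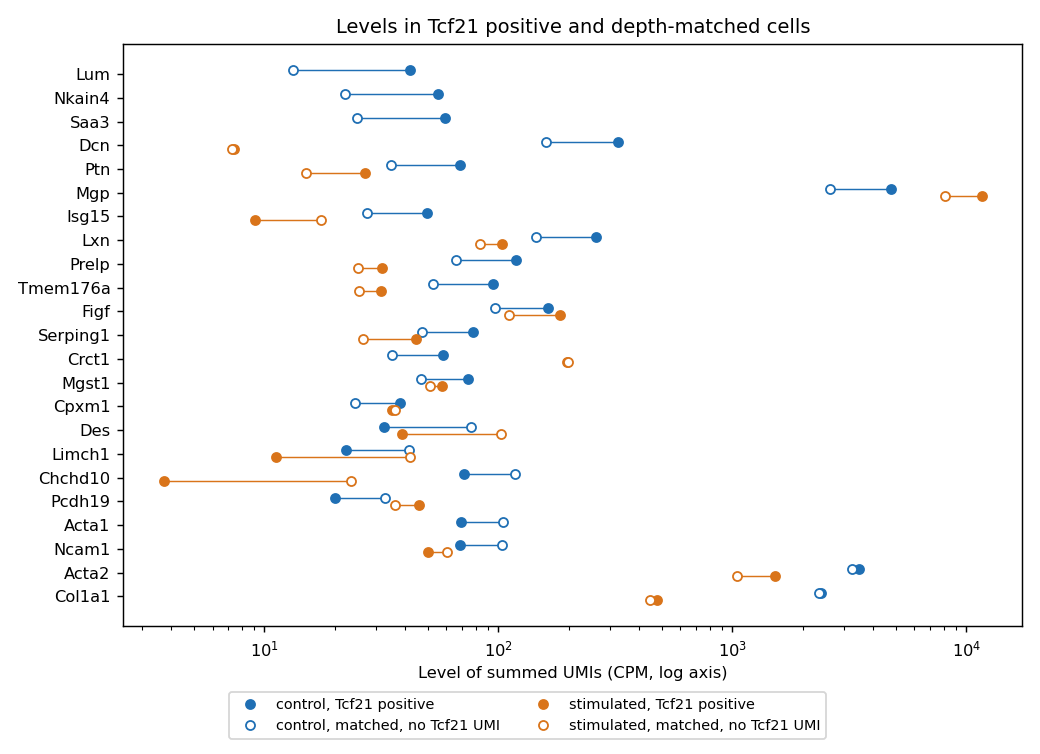
Level (x axis, CPM, log scale) of the 15 higher and 6 lower genes named from the control comparison, and of Acta2 and Col1a1, in Tcf21 positive cells (filled) and depth-matched Tcf21 negative cells (open) of the control (blue) and stimulated library (orange); a library with 3 or fewer UMIs in either set is not drawn. Mgp is at 4752 against 2602 CPM in control cells and at 11618 against 8097 CPM in stimulated cells, while Col1a1 is nearly even in both.

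The genes lowest in Tcf21 positive control cells relative to matched cells were genes of macrophages, such as C1qa (3.23 against 40.7 CPM), and after them Cxcl14. The naming rule, which left these out, gave 6 lower genes. Des, the desmin gene, was at 32.5 CPM in members and 76.3 CPM in matched cells, 2.35-fold lower (2.11 to 2.62). Acta1, the skeletal muscle alpha-actin gene, was at 69.3 against 105 CPM, 1.51-fold lower (1.40 to 1.63). Both were lower in each of the 4 clusters, Des by log2 -1.56 to -0.66. At 5000 UMIs per cell, Des was seen in 8.44% of members and 16.42% of matched cells. Acta1 was seen in 15.01% and 16.51%, so its share of positive cells was nearly even. Chchd10, a mitochondrial cristae protein gene, was at 71.0 against 118 CPM (1.66-fold lower, 1.53 to 1.79), and Pcdh19, a protocadherin gene, at 20.01 against 32.9 CPM (1.64-fold lower, 1.42 to 1.90). Ncam1, a neural cell adhesion molecule gene, was at 68.7 against 103 CPM (1.502-fold lower, 1.39 to 1.63), and at log2 -0.53 inside clusters, short of 1.5-fold. Limch1, an actin-binding gene that also serves as a lipofibroblast marker, was at 22.3 against 41.5 CPM, but inside clusters its log2 fold was -0.18 and it was lower in 1 of the 4. Of the members' UMIs, 5 cells held 38.96% for Des, 34.69% for Acta1 and 28.62% for Limch1. In matched cells the 5 highest held 14.35%, 18.52% and 16.25% of these. For Chchd10, Pcdh19 and Ncam1, 5 members held 15.23%, 11.29% and 6.69%.

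Other genes of the contractile and myofibroblast list were near even. Tnnt2, a muscle gene outside that list, was higher, at 15.4 against 5.53 CPM. Of 19 measured genes of the contractile and myofibroblast list, Des and Acta1 were lower, none was higher, and the median log2 fold was -0.06. Acta2, the smooth muscle alpha-actin gene that defines myofibroblasts, was at 3492 against 3236 CPM (fold 1.08, 1.07 to 1.09). Tagln, another smooth muscle gene, was at 2109 against 2191 CPM, and the myosin light chain gene Myl9 at 791 against 803 CPM. The smooth muscle marker list gave 1 lower of 6 measured, again Des, with summed levels of 1260 CPM in both sets.

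Some named genes were ordered by the number of Tcf21 UMIs in the cell and others were not. Over members with 1, 2 and 3 or more, 8 of the 15 named higher genes were higher at each step and 5 of the 6 named lower genes were lower at each step. The step from matched cells to members was part of how these genes were chosen. Cells with 2 and 3 or more Tcf21 UMIs were also among the members used in that choice. The share of all measured genes with such an order was not computed, so these counts have no background beside them. From matched cells with none to control cells with 1, 2 and 3 or more Tcf21 UMIs, Mgp was at 2602, 4450, 4629 and 7916 CPM, and Lxn was at 144, 217, 331 and 553 CPM. Tmem176a stood at 52.8, 84.0, 109 and 170 CPM and Serping1 at 47.0, 70.7, 88.7 and 132 CPM, all 4 higher at each step. Dcn was at 161, 309, 281 and 564 CPM and Lum at 13.2, 40.2, 40.1 and 62.8 CPM, level between 1 and 2 UMIs and highest in the last group. Des went the other way, at 76.3, 36.7, 21.5 and 11.1 CPM, as did Ncam1, at 103, 76.5, 46.9 and 32.4 CPM. Ptn went from 34.8 to 82.5, 28.3 and 8.10 CPM, Saa3 from 24.8 to 49.3, 126 and 37.5 CPM, Crct1 from 35.0 to 27.3, 239 and 34.4 CPM and Isg15 from 27.5 to 51.6, 39.6 and 49.6 CPM, none in order. Acta2, which was not chosen for its fold, had no order either, at 3236, 3484, 3032 and 4396 CPM. These groups held 1066, 419, 75 and 39 cells, and the steps were not tested.

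**Figure D4:**
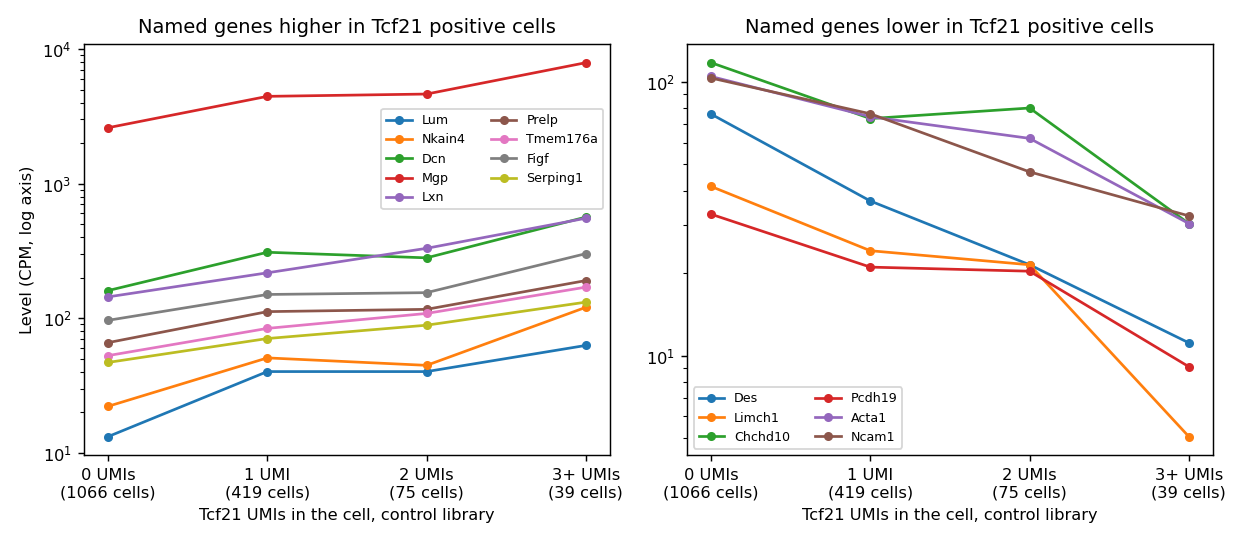
Level (y axis, CPM, log scale) of named higher genes (left) and named lower genes (right) in control cells grouped by their number of Tcf21 UMIs (x axis, with the number of cells; the group with none is the depth-matched set). Mgp goes from 2602 to 7916 CPM and Des from 76.3 to 11.1 CPM between the first and the last group, which has 39 cells.

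Lists of genes chosen for their roles set these genes in context. They are described by the number of members past 1.5-fold and by their median, beside the background of 0.822% higher and 0.396% lower. Macrophage genes are part of the lower share. Among adventitial fibroblast markers, genes of the fibroblasts around vessels and airways, 3 of 10 measured were higher (Dcn, Lum and Col14a1), none was lower, and the median log2 fold was 0.38. Col14a1, a fibril-associated collagen gene, was at 31.0 against 16.5 CPM, a fold of 1.88, and at log2 0.52 inside clusters, under 1.5-fold. Ly6a, the stem cell antigen gene, was at 74.5 against 52.8 CPM, and Serpinf1, the pigment epithelium-derived factor gene, at 387 against 307 CPM. Among alveolar fibroblast markers 2 of 4 measured were higher, Cdo1 (cysteine dioxygenase, 17.7 against 10.7 CPM, log2 0.52 inside clusters) and G0s2 (a lipase inhibitor of lipid droplets, 14.6 against 6.74 CPM), and Npnt and Cdh11 were near even at folds of 1.00 and 1.05. The adventitial list shares Dcn and Lum with the proteoglycan list, so the counts are not separate.

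The lipofibroblast list, to which Tcf21 is usually linked, was split. Of its 8 measured genes Figf was higher, Limch1 was lower, and the median log2 fold was -0.01. Plin2, which coats lipid droplets, was at 38.2 against 42.3 CPM, Pdgfra, a receptor of lung fibroblast progenitors, at 27.3 against 28.8 CPM, and Thy1 at 252 against 242 CPM. Genes under the lipid regulator PPARG gave none of 7 past 1.5-fold, with a median of -0.01. Pparg itself was below the level filter, at 3.07 CPM in members and 3.51 CPM in matched control cells.

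Fibrillar collagen genes were close to even. None of 6 measured was past 1.5-fold, with a median of 0.02: Col1a1 was at 2383 against 2347 CPM and Col1a2 at 1956 against 1922 CPM, while Col3a1 was at 652 against 481 CPM, a fold of 1.36. Of 16 elastic fibre and microfibril genes Eln (elastin, 15.1 against 8.92 CPM) and Efemp1 (a fibulin, 24.8 against 15.5 CPM) were higher, and Fbn1 (fibrillin) was at 277 against 286 CPM. In Eln, 47.1% of the members' UMIs came from 5 cells. Inside clusters both were under 1.5-fold, at log2 0.54 and 0.39.

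Secreted and inflammatory genes were read from 4 further lists. Of 3 measured complement genes Serping1 and Clu (clusterin, 16.3 against 9.04 CPM) were higher, Clu at log2 0.51 inside clusters. Of 15 matrix protease and inhibitor genes Mmp3, the stromelysin 1 gene, was at 41.1 against 7.99 CPM (fold 5.15, 4.36 to 6.10) and Mmp10 at 18.1 against 6.90 CPM, with 45.1% and 56.3% of their UMIs in 5 members. Of 10 chemokine and inflammatory genes Saa3 and Ccl8 (16.9 against 5.41 CPM, 51.7% of UMIs in 5 cells) were higher and Cxcl14 lower, at 58.0 against 182 CPM. Cxcl14 leads the Hsd3b6-led cluster, which held fewer of the members, and in the middle band of depth its log2 fold was 0.27. Of 8 interferon response genes Isg15 and Ifit1 (21.8 against 8.44 CPM, 65.6% in 5 cells) were higher, and Ifitm3 was at 1230 against 954 CPM.

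Partners of TCF21 and other transcription factors of the lung mesenchyme differed little. The E-protein genes Tcf3, Tcf4 and Tcf12, whose products pair with TCF21, had folds of 0.924, 0.931 and 0.971 in the control. Id3, whose product blocks E-proteins, was at 747 against 533 CPM (fold 1.40, 1.36 to 1.44), Id1 was at a fold of 1.26 and Id2 at 1.251, all short of 1.5-fold. None of the 7 genes of that list and none of 17 lung mesenchyme factors was past it, with medians of 0.08 and 0.07. Foxf1, a factor of the lung mesenchyme, was at 29.2 against 25.2 CPM and Osr1 at 63.4 against 50.9 CPM. Cell cycle genes were even too, with none past 1.5-fold of 16 S phase genes and 17 genes of G2 and M phase. The sterol and fatty acid synthesis list had no call among 16 genes and a median of -0.16.

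**Figure D5:**
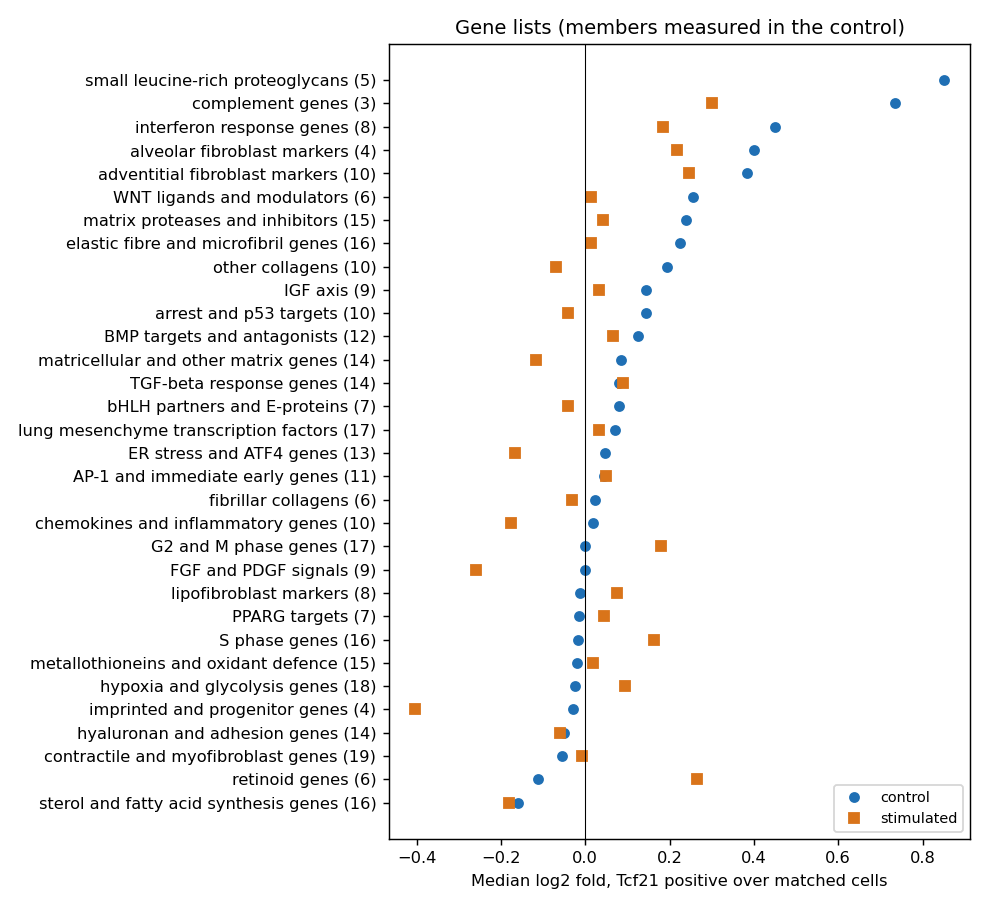
Median log2 fold of Tcf21 positive over matched cells (x axis) for each gene list, in the control (blue circles) and the stimulated library (orange squares; lists with fewer than 3 measured genes are not drawn); the number of genes measured in the control stands in brackets. The small leucine-rich proteoglycans lie furthest right in the control at 0.85. The fibrillar collagen, contractile and lipofibroblast lists lie near 0, and the other collagens at 0.19.

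Markers of other cell types were checked in the same sets. Of 12 macrophage markers 7 were measured in the control and 6 were lower (median log2 fold -3.52). Their summed level was 81.2 CPM in members and 607 CPM in matched cells, of which 25 were macrophage-like. With fibroblast-like cells only, the log2 folds of these 6 were 0.042 for Lyz2, 0.24 for Tyrobp, 0.50 for C1qc, -0.22 for C1qa, -0.22 for C1qb and -0.053 for Fcer1g. The summed mesothelial markers were at 18.1 and 23.2 CPM, the pericyte markers at 26.4 and 29.1 CPM, the endothelial markers at 7.91 and 7.55 CPM and the epithelial markers at 0.484 and 0.525 CPM. No UMI of the leukocyte gene Ptprc was counted in the members, against 23 in matched cells. Of 11 fibroblast markers, all measured in the control, 2 were higher (Lum and Dcn), none was lower, and the median log2 fold was 0.08. Col1a1, Sparc (4436 against 3752 CPM) and Vim were high in both sets, whereas Lum and Pdgfra were at 13.2 and 28.8 CPM in matched cells.

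In the stimulated library 129 members were set beside 258 matched cells. The sets summed to 2417551 and 4835871 UMIs, against 12395273 and 24771065 in the control. Of 6754 genes measured, 172 were at least 1.5-fold higher (2.55%) and 165 lower (2.44%), and the median over all of them was 0.03 (log2). The split turned to 227 higher and 374 lower when mitochondrial and ribosomal protein genes were left out of the scaling. Of the 56 genes higher in control members, 33 were measured here; 28 of these had a fold above 1 (84.8%, against 54.5% of the 6282 genes measured in both libraries) and 11 were past 1.5-fold higher (33.3%, against 1.83%). Inside stimulated clusters Mmp3, Pcolce2, Sparcl1, Kcne4, Serping1 and Gas6 of these 11 stayed past 1.5-fold. Figf, Serpina3n, Barx1, Ptn and Casp12 fell short of it there, at log2 0.57, 0.57, 0.51, 0.33 and 0.27. Of the 27 lower genes 9 were measured. Of these, 5 had a fold below 1 and 4 a fold above 1 (44.4% above, against 54.5%), so their direction was near even. Past 1.5-fold lower were 4 of the 9 (44.4%, against 2.24%), namely Des, Limch1, Chchd10 and Pde10a. With only fibroblast-like cells kept, which leaves out the Des-led cluster, their log2 folds were -0.28, 0.47, -2.20 and -0.17. The 2 comparisons share no cells, but both libraries came from the same lung.

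Figf and Serping1 had folds near those in the control, and inside clusters log2 folds of 0.57, short of 1.5-fold, and 0.61. Figf was at 183 CPM in stimulated members and 111 CPM in matched cells, a fold of 1.64 (1.45 to 1.87), and Serping1 at 44.3 against 26.5 CPM, a fold of 1.67 (1.28 to 2.18). Mgp stood at 11618 against 8097 CPM, a fold of 1.43 (1.41 to 1.46), and Lxn at 103 against 83.3 CPM, a fold of 1.24 (1.06 to 1.46). Prelp was at 31.9 against 25.2 CPM and Tmem176a at 31.4 against 25.4 CPM, with intervals that include 1. Genes that led the control were nearly silent: no Lum UMI was counted in either stimulated set, Nkain4 had 1 UMI in each, and Dcn was at 7.45 against 7.24 CPM. Isg15 went the other way from the control, at 9.10 against 17.4 CPM.

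Des was again lower, at 38.9 against 103 CPM, 2.64-fold lower (2.11 to 3.33), as was Chchd10, at 3.72 against 23.4 CPM. Of the matched stimulated cells 9.69% lay in the unnamed Des-led cluster against 0.775% of the members, and inside clusters the log2 fold of Des was 0.67, with 74.5% of the members' Des UMIs in 5 cells. For Chchd10, with 9 UMIs in the members and 68.1% of the matched UMIs in 5 cells, it was -1.90 inside clusters and -0.25 in cells out of cycle. Limch1 was at 11.2 against 42.0 CPM, and at log2 0.47 with only fibroblast-like cells kept, which leaves out the Des-led cluster.

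The naming rule gave 5 higher and 5 lower genes from the stimulated comparison itself, out of 36 and 24 that qualified. Ms4a4d, a membrane protein gene, was at 41.4 against 17.0 CPM, a fold of 2.44 (1.80 to 3.31), and at 12.02 against 5.21 CPM, a fold of 2.31, in the control. Lmcd1, a gene for a LIM domain cofactor, was at 73.2 against 38.9 CPM, a fold of 1.88 (1.53 to 2.33), and Olfml3, a secreted matrix protein gene, at 34.7 against 19.02 CPM, a fold of 1.83. Fabp4, the adipocyte fatty acid-binding protein gene and a PPARG target, was at 240 against 140 CPM, a fold of 1.71 (1.53 to 1.91). With Fabp5 (221 against 145 CPM) Fabp4 made 2 of 9 measured PPARG targets higher, none lower, and the list's median was 0.04. Ly6c1 was at 81.1 against 34.1 CPM; 68.8% of the 90-base windows near its transcript ends also occur in another gene, so its count is uncertain. Inside clusters Ms4a4d stayed past 1.5-fold at log2 0.90, while Ly6c1 (0.56), Lmcd1 (0.38), Olfml3 (0.38) and Fabp4 (0.20) did not.

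The named lower genes of the stimulated library were Mcpt8, a mast cell protease gene, at 14.9 against 64.1 CPM, Cck, the cholecystokinin gene, at 505 against 1786 CPM (3.53-fold lower, 3.33 to 3.76), Timp3 at 29.8 against 78.4 CPM, Grem1, a BMP antagonist gene, at 39.7 against 103 CPM, and the chemokine gene Ccl7 at 33.9 against 73.2 CPM. Of the matched cells' UMIs, 5 cells held 47.7% for Mcpt8, 38.1% for Cck, 33.5% for Timp3, 28.3% for Grem1 and 39.8% for Ccl7. The interval of Cck covers counting error only and not this uneven spread between cells. Mcpt8 and Cck are among the genes that lead the unnamed Des-led cluster. With only fibroblast-like cells kept, the log2 folds of Mcpt8 and Cck were -0.96 and -0.62 and those of Timp3, Grem1 and Ccl7 were -1.39, -0.67 and -1.01. In the control Timp3 was at 723 against 781 CPM and Grem1 at 263 against 267 CPM, both near even.

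Several other lists gave few calls in the stimulated members. The chemokine and inflammatory list gave more, with 3 lower and 1 higher of 7 measured and a median of -0.18. Adventitial markers gave 2 higher of 9 measured, Cygb (cytoglobin, 26.9 against 12.8 CPM) and Ly6a (489 against 308 CPM), and none lower, with a median of 0.25. Acta2 was at 1529 against 1048 CPM, a fold of 1.46 (1.40 to 1.52). Of the members' 3696 Acta2 UMIs 33.3% came from 5 cells, 774 of them from 1 cell, against 22.2% in 5 matched cells. The contractile list had Des as its 1 lower gene of 17, with a median of -0.01. Fibrillar collagens gave none of 6, at a median of -0.03. Genes of G2 and M phase gave 3 higher of 20, Aurka, Kif23 and Cdc20, in sets with 34.1% and 29.8% of cells in cycle; whether the cycle moved other genes was not tested beyond the counts in cells out of cycle.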

How the data were processed

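The authors deposited raw UMI counts per gene and barcode for 2 droplet 3′ libraries, as sparse matrices of 27998 genes. Software version 3.0.2 stands in the matrices, per the file headers; Cell Ranger 1.3.1 and Seurat 3.0.0 are listed, per the submitters' processing notes. The genome build is not given in the sources used here. Groups come from the sample titles. From these counts, cells with at least 5000 UMIs and at most 20% mitochondrial UMIs were kept (87173206 and 115573459 UMIs in all); no doublet caller was run, so doublets remain. Cells were clustered with scanpy 1.11.5 (2000 variable genes without Tcf21, 30 components, 15 neighbours, Leiden resolution 0.5). Each member was matched, without replacement, to the 2 Tcf21 negative cells nearest in log UMIs. Levels are CPM of summed UMIs; folds have exact conditional-Poisson 95% intervals (scipy 1.17.1), and intervals and floors (3 counts) cover counting error only. Genes were measured at a mean of 10 CPM and called past 1.5-fold, Tcf21 left out. The fold and interval calculation was run on simulated Poisson counts. These lack the uneven spread between cells of the real counts, so they do not check the intervals for it. Thinning drew 5000 UMIs per cell. Named genes were the largest folds each way (15 of the control, 5 of the stimulated comparison) at 25 CPM or more, with 1 sign in 3 depth bands and past 1.25-fold among fibroblast-like cells; predicted and unnamed transcripts, mitochondrial and ribosomal genes were left out. Also named were the 2 most extreme and the most abundant genes of each list, the fibroblast and macrophage markers, and genes singled out from the lists after their values were seen. The members and gene lists were chosen with earlier results of these data known. In the lists, 531 of 533 genes were found. Alternatives covered matching, scaling, level filter, cell class, depth, cycle, Tcf21 UMIs and, added after seeing the data, matching within clusters and leaving out the cluster richest in members. A result for 1 list is not reported here.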

Additional observations from a re-analysis of the deposited data

Results flagged for a closer look

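Isg15 was higher in control Tcf21 positive cells and lower in stimulated ones, where its log2 fold was -0.93 on 22 UMIs in members and 84 in matched cells; the difference between the libraries was not tested. Within stimulated clusters its log2 fold was -0.13, and 5 cells held 54.5% of the members' UMIs.

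Among control barcodes that the depth and mitochondrial limits left out, 15 of 939 held a Tcf21 UMI, which is 1.60% (exact binomial interval 0.897 to 2.62) at a median of 1394 UMIs. In the stimulated library it was 2 of 990.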

How the results depend on the processing

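The share of control cells with a Tcf21 UMI was 3.90% at 5000 UMIs per cell, 2.80% when 2 UMIs were asked for and 11.6% with no UMI minimum; the stimulated share was 0.611% and 0.0894% under the first 2. The counts of genes past 1.5-fold moved more than the named genes. In the control, higher and lower counts were 14 and 7 at 50 CPM, 1170 and 1300 with no level filter, 233 and 198 for cells with 2 Tcf21 UMIs, 686 and 451 when thinned, 132 and 188 in the shallowest and 133 and 44 in the middle band of depth. Lower counts also moved to 45 without mitochondrial and ribosomal genes in the scaling, 15 in fibroblast-like cells and 10 within clusters. In the stimulated library they were 75 and 109 against all negative cells, 24 and 12 at 50 CPM, 1479 and 1226 with no filter, 1742 and 1388 for 2 Tcf21 UMIs, 345 and 279 out of cycle, 1553 and 1230 when thinned, and 772 and 775, 603 and 565, and 502 and 365 in the 3 depth bands. Higher counts moved to 107 within clusters, and lower counts to 260 with 1 matched cell and 374 under the other scaling. Fewer cells or UMIs enter many of these; the cause of the others was not tested.

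Some single genes changed direction (log2 folds). In the control these were Saa3 against all negative cells (-0.090), Ptn (-0.76), Eln (-0.093) and Ifit1 (-0.19) at 2 Tcf21 UMIs, Crct1 (-0.43), Eln (-0.78) and Ifit1 (-2.46) when thinned, Cxcl14 in the middle band (0.27), Lyz2 (0.042), Tyrobp (0.24) and C1qc (0.50) in fibroblast-like cells, and Tyrobp (0.035), Fcer1g (0.0046) and C1qc (0.11) within clusters. In the stimulated library they were Ptn against all negative cells (-0.0031), Isg15 in the shallowest band (0.11), Des within clusters (0.67), Limch1 (0.47) and Sod3 (0.32) in fibroblast-like cells, and Lmcd1 (-0.36) and Ccl7 (0.13) when thinned. Of the list medians, 472 of 504 control and 418 of 457 stimulated values stayed within the interval of the reported median; of the values of named genes, 1059 of 1637 and 871 of 1187 stayed within theirs, and 564 and 309 left it without changing direction. No paired analysis was possible because each group has 1 library. The stimulated set has 129 members, and a Tcf21 negative cell may hold uncounted Tcf21 RNA.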

Other observations

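Several further genes were also past 1.5-fold in the control members. They were chosen after their values were seen. Gas6, a ligand of the TAM receptor kinases, was at 46.2 CPM in members and 30.04 CPM in matched control cells, and at 55.0 against 32.9 CPM in the stimulated library, folds of 1.54 and 1.67. Pcolce2, an enhancer of procollagen processing, was at 18.0 against 5.57 CPM in the control, a fold of 3.23 (2.60 to 4.02), and at log2 2.05 inside clusters. Rarres1, a retinoid-induced gene, was at 25.01 against 10.3 CPM, and Rasl11a, a small GTPase gene, at 96.7 against 62.9 CPM. Serpina3n, a secreted protease inhibitor gene of the acute phase, was at 19.7 against 7.99 CPM in the control and at 1018 against 636 CPM in the stimulated library, folds of 2.46 and 1.60. Tnnt2, the cardiac troponin T gene, was at 15.4 against 5.53 CPM in the control, a fold of 2.79 (2.23 to 3.50), and at log2 1.77 inside clusters.

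Wisp2, which encodes a matricellular protein of the CCN family, was at 43.4 CPM in stimulated members and 4.96 CPM in matched cells, with 66.7% of the members' 105 UMIs in 5 cells, and at 514 against 363 CPM in the control.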
